A study of Mus musculus with 8 samples.

Results

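The heparan sulfate sulfotransferases described here are 10 genes, Ndst1, Ndst3, Ndst4, Hs6st1, Hs6st2, Hs6st3, Hs3st1, Hs3st3b1, Hs3st4 and Hs3st5, out of 14166 genes counted in nuclei of the embryonic mouse dorsal telencephalon. They were taken by symbol from the deposited gene table, and all 10 were found. They had been selected on measured values, namely their levels in the deposited clusters of nuclei, so the cluster pattern is given as a description and without a test. The nuclei came from C57BL/6J embryos at embryonic day E15.5, from 4 wildtype samples and 4 samples of the Pantr2 knockout (labelled Pantr2-/-), Pantr2 being the locus of a long noncoding RNA. Each sample was frozen dissected dorsal telencephalon profiled by single-nucleus RNA-seq, in which the 3′ ends of nuclear polyadenylated RNA are counted as unique molecular identifiers (UMIs). How the knockout allele was made is not given in the sources used here, and the Pantr2 transcript itself was not analysed here. The labels do not say whether a sample was 1 embryo or several, so the p-values below measure the spread between these samples.

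Heparan sulfate is a linear sugar chain carried by core proteins such as syndecans, glypicans, agrin and perlecan, and it is finished in the Golgi by a series of sulfotransferases. N-deacetylase/N-sulfotransferases (the Ndst genes) act first and open a stretch of chain to the later enzymes, 6-O-sulfotransferases (the Hs6st genes) add sulfate to glucosamine, and 3-O-sulfotransferases (the Hs3st genes) place the rarest mark last. The resulting sulfation pattern decides which ligands a chain holds, among them fibroblast growth factors, Wnts, Slits and other cues for the growth and guidance of axons in the developing brain.

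The 8 samples held 67319 nuclei, 33781 wildtype and 33538 knockout, with 7280 to 10921 nuclei per sample and a median of 2570 to 2905 UMIs per nucleus. Each sample carried 1 library date, and the dates were not compared between samples. Of the nuclei, 1023 carried a barcode that also occurred in another sample. The deposited annotation has 7 clusters. By marker genes other than the sulfotransferases, cluster 1 was upper-layer-like, with 4 of 6 markers highest there (Cux1, Cux2, Pou3f1 and Pou3f2). The other upper-layer markers, Mdga1 and Unc5d, were highest in cluster 5. Cluster 2 was subcerebral deep-layer-like by 3 of 6 markers (Bcl11b, Fezf2 and Ldb2), while Etv1 was highest in cluster 6 and Crym in cluster 7. Cluster 3 was corticothalamic-like by 6 of 6 markers (Tle4, Foxp2, Tbr1, Sox5, Zfpm2 and Wnt7b). Cluster 4 was apical progenitor-like, with all 11 listed progenitor markers highest there. Cluster 5 was intermediate progenitor-like by 5 of 6 markers (Eomes, Neurog2, Btg2, Gadd45g and Mfap4), while Insm1 was highest in cluster 1. Nxph4 (subplate), Reln (Cajal-Retzius) and Ebf1 (striatal) were also highest in cluster 5, and clusters 3 and 4 held some markers of other lists too. Clusters 6 (led by Tafa1, Grik1 and Nell1) and 7 (led by Kctd16, Gm32647 and Zfp385b) held no more than 1 marker of any list and are left unnamed. Beside Etv1 and Crym these were Adarb2 (interneuron) for cluster 6, and Calb2 (Cajal-Retzius), Zbtb20 (hippocampal) and Lhx9 (thalamic) for cluster 7. The names were rebuilt from markers, so they may differ from those of the study. Levels are given in CPM, the UMIs of a gene per 1000000 UMIs of all genes summed over the nuclei of 1 sample and cluster. A gene is compared only with itself, since 3′ counts of different genes share no scale. Summed over the 6 upper-layer markers, wildtype samples read 8194 to 9592 CPM in cluster 5 and 4464 to 5426 CPM in cluster 1.

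Hs3st3b1, Hs3st4 and Hs3st5, all 3-O-sulfotransferases, had their highest level in the corticothalamic-like cluster 3. Hs3st4, a 3-O-sulfotransferase known for expression in brain, read 3660, 4052, 4154 and 4221 CPM there in wildtype samples 1 to 4. The next cluster, the subcerebral deep-layer-like cluster 2, read 512, 692, 656 and 562 CPM in the same samples. The ranges lay far apart, and the mean of cluster 3, 4022 ± 251 CPM (SD, n = 4), was 6.64 times that of cluster 2. The upper-layer-like cluster 1 held the lowest level, between 32.1 and 37.1 CPM, so that the wildtype means of the highest and the lowest cluster differed 117-fold. The order was cluster 3, 2, 7, 4, 6, 5 and 1, and among neighbours in it only clusters 4 and 6, and 6 and 5, had overlapping ranges. After every nucleus was thinned to 1400 UMIs, 86.3% to 91% of cluster 3 nuclei in the wildtype samples kept at least 1 Hs3st4 UMI, against 3.45% to 4.95% in cluster 1. Median depths per nucleus before thinning were 2926 to 3211 UMIs in cluster 3 and 2245 to 2425 in cluster 1. Among the 3553 genes of at least 50 CPM in cluster 3, Hs3st4 stood 1st by its ratio to the median of the other clusters.

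Hs3st5, whose product 3-O-sulfates chains of several kinds, read 837, 894, 806 and 890 CPM in cluster 3 of the wildtype samples. Cluster 2 followed with 189, 150, 137 and 143 CPM, 5.54 times lower on the mean and without overlap. In the order 2, 5, 1 and 6 neighbouring clusters overlapped, although clusters 2 and 6 did not overlap each other. Cluster 4 lay at 46.1 to 59.7 CPM, and cluster 7 was lowest at 6.06 to 37.7 CPM. Thinned shares were 50.8% to 53.6% of cluster 3 nuclei and 0.701% to 3.1% of cluster 7 nuclei.

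Hs3st3b1, the third enzyme of this kind, was a low-count gene with the largest ratio of the highest to the second cluster among the 10 genes. It read 66.1, 90.7, 74.4 and 73.4 CPM in cluster 3 and 4.11, 5.37, 3.88 and 4.15 CPM in cluster 2. The mean of cluster 3 was 17.4 times that of cluster 2, and 1549 of its 1724 wildtype UMIs came from cluster 3. In every other cluster each wildtype sample was under 6 CPM, and 1 wildtype sample had no UMI in cluster 1. Its sequence has a near-identical copy, Hs3st3a1 (97.7% identity over 774 aligned bases, 230 UMIs in all samples), so reads could have been shared between the pair and the level is uncertain to that extent. Hs3st3b1 stood 3rd among the leading genes of cluster 3 and Hs3st5 43rd.

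Across the 28 wildtype values (7 clusters in 4 samples), log2(CPM + 1) of Hs3st4 and Hs3st3b1 had a Pearson r of 0.89, Hs3st3b1 and Hs3st5 0.69, and Hs3st4 and Hs3st5 0.52. These 28 points share libraries and are not independent. Within cluster 3, nuclei with a thinned Hs3st4 UMI held an Hs3st5 UMI in 54.6% to 58.3% of cases over the 4 wildtype samples. Nuclei without an Hs3st4 UMI did so in 15.2% to 19.5%. UMIs of both were found in 49.9% of nuclei on the mean of the samples, where the product of the separate shares is 46%. Free RNA can add UMIs to a nucleus, and its part in these shares was not tested.

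The 250 bases before the annotated start of these 3 genes are shown because the genes shared a cluster; they are RefSeq sequences of GRCm38.p6, 5′ to 3′ on the gene's strand, with CpG dinucleotides in capitals.
Hs3st4, chr7:123982578-123982827, + strand: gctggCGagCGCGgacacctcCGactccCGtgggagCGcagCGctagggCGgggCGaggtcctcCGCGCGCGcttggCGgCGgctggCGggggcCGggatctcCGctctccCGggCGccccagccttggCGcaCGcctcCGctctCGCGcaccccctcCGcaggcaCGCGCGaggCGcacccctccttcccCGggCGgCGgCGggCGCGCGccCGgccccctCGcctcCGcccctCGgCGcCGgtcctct
Hs3st5, chr10:36506557-36506806, + strand: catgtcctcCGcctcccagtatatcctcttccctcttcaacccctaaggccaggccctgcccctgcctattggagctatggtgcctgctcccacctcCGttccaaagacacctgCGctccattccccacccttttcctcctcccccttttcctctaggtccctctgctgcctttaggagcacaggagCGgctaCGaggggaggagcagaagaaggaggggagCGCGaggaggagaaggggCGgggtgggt
Hs3st3b1, chr11:63922285-63922534, - strand: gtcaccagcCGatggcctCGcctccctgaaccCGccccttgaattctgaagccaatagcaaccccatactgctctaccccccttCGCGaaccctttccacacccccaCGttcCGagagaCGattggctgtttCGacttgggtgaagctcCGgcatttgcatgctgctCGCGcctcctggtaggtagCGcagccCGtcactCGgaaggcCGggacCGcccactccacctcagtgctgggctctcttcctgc
The windows differ in composition. The Hs3st4 window held 43 CpG at 82% G + C and the Hs3st3b1 window 17 at 62.4%, while Hs3st5 had 8 at 62%. The median of 32851 mouse windows of this length was 6 CpG and 52.4% G + C, and 99.3% of them had fewer CpG than Hs3st4. The GC-box letters GGGCGG, searched on both strands, were found in all 3 windows and in 32.7% of all windows. CCAAT was found in the Hs3st5 and Hs3st3b1 windows (33.8% of all) and the octamer letters ATGCAAAT in that of Hs3st3b1 (1.6% of all). The T-box letters GGTGTGA were in none of the 10 windows available for 8 of the genes (3.33% of all). None of the searched words contains another. A match is a description of letters and not a site.

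Hs3st1, whose product makes the antithrombin-binding form of the chain, had its highest level elsewhere, in the intermediate progenitor-like cluster 5. It read 121, 144, 113 and 124 CPM there and 54.6, 65.7, 40 and 52.6 CPM in the upper-layer-like cluster 1, without overlap and 2.36 times apart on the mean. The lowest level was that of cluster 7, 9.28 to 21.2 CPM. Cluster 5 therefore stood apart within each of the 4 wildtype samples and, as for every member but Ndst1, Ndst4 and Hs6st1, the same cluster was highest in all 8 samples of both genotypes.

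Among the N-deacetylase/N-sulfotransferases, Ndst3 marked the upper-layer-like cluster 1. Ndst3 read 288, 353, 225 and 403 CPM in cluster 1 of the wildtype samples, 191, 233, 180 and 241 CPM in the intermediate progenitor-like cluster 5, and 151, 144, 82.8 and 160 CPM in cluster 6. Clusters 1 and 5 overlapped in range over samples, although cluster 1 was the higher of the pair within each of the 8 samples. The corticothalamic-like cluster 3 was lowest, at 21.5 to 24.2 CPM, 13.9 times below cluster 1 on the mean, which is the reverse of the place it held for Hs3st4. Thinned shares of nuclei were 20.8% to 33.9% in cluster 1 and 2.14% to 3.13% in cluster 3. Ndst3 stood 3rd among 3754 ranked genes of cluster 1. The gene has annotated RefSeq starts at more than one place, and the windows before 2 of them are shown with the same marking. Both windows lie inside the GENCODE span of the gene, whose 5′ end on this strand is at 123690853. The window before that end is not shown here, so no contrast with the windows above is drawn.
Ndst3, chr3:123672478-123672727, - strand: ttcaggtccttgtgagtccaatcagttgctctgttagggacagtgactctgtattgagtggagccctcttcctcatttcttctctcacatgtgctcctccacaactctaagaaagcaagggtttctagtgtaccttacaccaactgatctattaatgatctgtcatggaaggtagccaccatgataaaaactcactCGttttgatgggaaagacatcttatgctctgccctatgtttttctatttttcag
Ndst3, chr3:123619451-123619700, - strand: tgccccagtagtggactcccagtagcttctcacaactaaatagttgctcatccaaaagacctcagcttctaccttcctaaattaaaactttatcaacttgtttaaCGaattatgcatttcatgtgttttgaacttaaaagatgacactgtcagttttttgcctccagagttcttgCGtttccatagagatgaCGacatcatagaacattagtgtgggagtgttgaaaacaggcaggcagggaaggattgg
They held 1 and 3 CpG, at 42.4% and 40.4% G + C, and fewer CpG were found in 7.87% and 29% of all windows. CCAAT was present in both and GGGCGG in neither.

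Ndst1, the broadly expressed member of the class, was the most even of the 10 genes, together with Hs6st1. Its wildtype means ran from 46.1 CPM in cluster 6 to 78.8 ± 4.96 CPM (SD, n = 4) in the apical progenitor-like cluster 4, a 1.71-fold span. Cluster 4 lay above all others in the wildtype samples, at 74.5 to 85.1 CPM against 50.3 to 72.2 CPM in cluster 5, and the remaining neighbours overlapped. In the knockout samples cluster 5 was marginally the higher of these (72.8 against 72.1 CPM on the mean). Ndst1 shares its locus with Rps14 on the opposite strand, a ribosomal protein gene with 194833 UMIs in these samples against 11252 for Ndst1, and whether the counting used the strand is not given in the sources used here. Ndst4 was scarce, with 508 UMIs in all wildtype nuclei, and was highest in cluster 6 at 15.8, 24.5, 8.48 and 28.2 CPM, followed by the apical progenitor-like cluster 4 at 6.51 to 8.26 CPM. With nuclei above the median of the deposited doublet score left out, its highest cluster became cluster 4.

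Of the 6-O-sulfotransferases, Hs6st2 and Hs6st3 had their highest levels in different clusters. Hs6st2, on the X chromosome, read 820, 909, 1128 and 1012 CPM in the upper-layer-like cluster 1, and 411, 306, 422 and 402 CPM in cluster 2. Cluster 1 was 2.51 times higher on the mean, without overlap, and the thinned share of nuclei was 52.1% to 66.5% there. The remaining clusters lay between 132 and 272 CPM in every wildtype sample, with cluster 6 lowest.

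Hs6st3 was instead highest in the unnamed cluster 6, at 1465, 1246, 1388 and 1494 CPM, against 362, 201, 450 and 332 CPM in cluster 1. The mean of cluster 6 was 1398 ± 111 CPM (SD, n = 4), 4.16 times that of cluster 1 and 28.5 times that of cluster 3, the lowest. Cluster 6 made up 9.37% to 12.7% of the wildtype nuclei and held 49.9% to 57.6% of their Hs6st3 UMIs. The window before its start is shown because it resembles that of Hs3st4 in CpG content although the highest clusters of the genes differ.
Hs6st3, chr14:119138015-119138264, + strand: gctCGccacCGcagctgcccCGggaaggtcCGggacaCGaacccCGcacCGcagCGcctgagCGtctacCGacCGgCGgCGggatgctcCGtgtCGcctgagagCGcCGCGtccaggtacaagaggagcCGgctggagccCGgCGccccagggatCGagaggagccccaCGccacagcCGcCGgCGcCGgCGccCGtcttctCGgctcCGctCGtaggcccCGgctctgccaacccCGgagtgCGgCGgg
It held 36 CpG at 76% G + C, and 97.4% of all windows had fewer CpG. None of the 5 words searched was found in it. Hs6st1 was low and even, from 15.2 CPM in cluster 5 to 31.9 CPM in cluster 3 on the wildtype means, and every neighbouring pair of clusters overlapped.

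**Figure D1:**
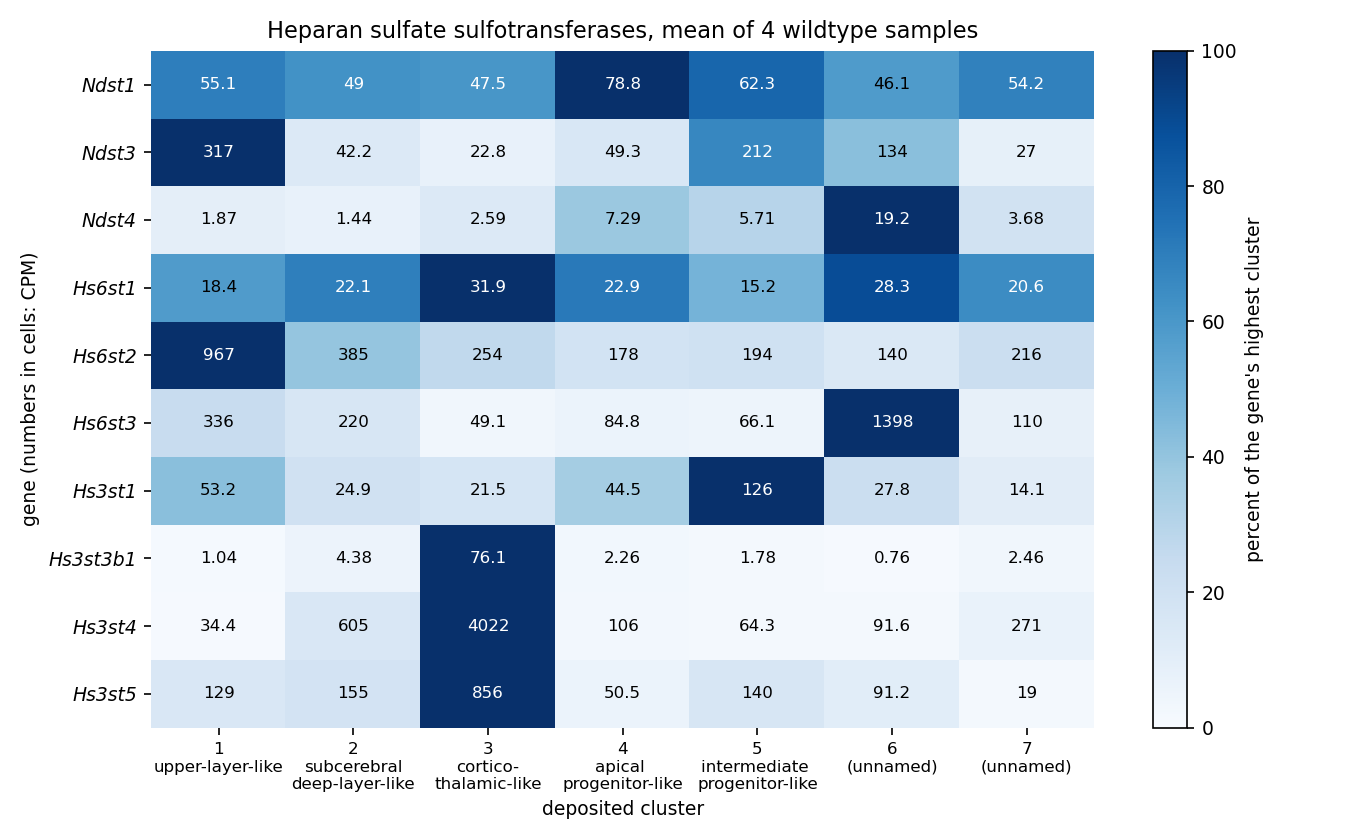
Mean CPM of the 4 wildtype samples for the 10 genes (rows) in the 7 deposited clusters (columns). The shade is the percentage of the gene's own highest cluster, so rows are compared along themselves; Hs3st3b1, Hs3st4 and Hs3st5 peak in cluster 3, Ndst3 and Hs6st2 in cluster 1, and Hs6st3 in cluster 6.

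Where the genes lie was taken from GENCODE M21 on GRCm38. Hs3st4 lies at chr7:123982869-124398989, Hs3st5 at chr10:36506814-36834397 and Hs3st3b1 at chr11:63885792-63922290. Hs3st1 lies at chr5:39613935-39755475, Ndst3 at chr3:123526166-123690853 and Ndst4 at chr3:125404076-125728899 on the same chromosome. Hs6st1 lies at chr1:36068400-36106446, Hs6st2 at chrX:51387212-51681856, Hs6st3 at chr14:119138341-119869815 and Ndst1 at chr18:60684494-60748650. Hs3st4 has an antisense neighbour within its span, Gm27040, with 428 UMIs against 183367 for Hs3st4.

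For each member the 3 genes of nearest cluster pattern were found by Pearson r of log2(CPM + 1) over the same 28 wildtype values, among genes with a mean of at least 10 CPM. Nearest to Ndst3 were Cux2 (r = 0.98), the upper-layer homeobox gene, and the ephrin receptor genes Epha5 (0.91) and Epha3 (0.90). Nearest to Hs3st4 were Grik3 (0.97), a kainate receptor subunit, Brinp1 (0.96) and Hlf (0.95). Hs3st5 came closest to Sel1l3 (0.96), Wnt7b (0.95) and Tbr1 (0.88), and Hs3st3b1 to Tle4 (0.95), Cblb (0.93) and Nfe2l3 (0.92); Tle4, Tbr1 and Wnt7b were among the markers that named cluster 3. The nearest genes to Hs6st2 were Sik2 (0.94), Abcc8 (0.91) and Herc3 (0.90), and those to Hs6st3 were Tafa2 (0.94), Dennd4a (0.93) and Adgrl3 (0.90). Hs3st1 came closest to Plcl1 (0.96), Tia1 (0.93) and Acvr2b (0.92). The nearest genes were Cd2ap (0.90), Slc9a8 (0.89) and Gatad2a (0.89) for Ndst1, Kitl (0.86), Rap2a (0.85) and Inpp4b (0.83) for Hs6st1, and B130024G19Rik (0.88), Trps1 (0.85) and Ncoa2 (0.85) for Ndst4. The values share libraries and depth, and r is a description.

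In the apical progenitor-like cluster 4 the deposited cell cycle angle was used to sum nuclei by phase range. Nuclei in the S range (5734) and in the G2/M range (3634) differed little in depth, with medians of 2866 to 3366 and 2734 to 3021 UMIs per sample. Ndst3, Hs6st2 and Hs6st3 read higher in the S range than in the G2/M range in all 8 samples. Hs3st1, Hs3st4 and Hs3st5 did so in 7 of 8 samples, Ndst4 in 5, Hs6st1 in 4 and Hs3st3b1 in 2. Ndst3 stood at 46.1 to 75.2 CPM in S and 29 to 41.2 CPM in G2/M in the wildtype samples, and Hs6st3 at 61.4 to 155 against 39.7 to 65.4 CPM. Ndst1, whose highest wildtype level was in this cluster, showed no such order, with S above G2/M in 3 of 8 samples. These are levels without a test.

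The knockout was compared with the wildtype by edgeR's quasi-likelihood test on summed UMIs, once over all nuclei and once in each cluster, with Benjamini-Hochberg adjustment over all genes tested in a fit and a threshold of 0.05. The 10 genes gave 74 tests in the 8 fits, since Ndst4 in clusters 2 and 7 and Hs3st3b1 in clusters 1, 5, 6 and 7 did not pass the filter on low counts. Of these, 7 tests (9.46%) on 6 genes passed. Over all genes 3638 of 92619 tests in the 8 fits passed (3.93%), on 1906 genes. Over all nuclei 0 of 10 members passed, against 5.26% of all genes tested, with 2 members at an unadjusted p under 0.05 (Hs6st3 and Hs3st3b1). In cluster 2, the subcerebral deep-layer-like one, 4 of 9 members passed against 9.11% of all genes. Cluster 3 gave 1 of 10 members (3.36% of all genes), cluster 5 gave 2 of 9 (1.77%), and cluster 1 gave 0 of 9 (4.84%), cluster 4 gave 0 of 10 (4.29%), cluster 6 gave 0 of 9 (0.779%) and cluster 7 gave 0 of 8 (1.03%). From cluster 1 to cluster 7 in order, 3, 4, 4, 2, 2, 0 and 0 members had an unadjusted p under 0.05. No share of all genes is given here for this unadjusted threshold. These counts, and the 2 over all nuclei, therefore cannot be read as particular to the members. The members' median log2 fold change lay between -0.24 in cluster 6 and 0.17 in cluster 1, and that of all genes tested was within 0.0057 of 0 in each fit.

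**Figure D2:**
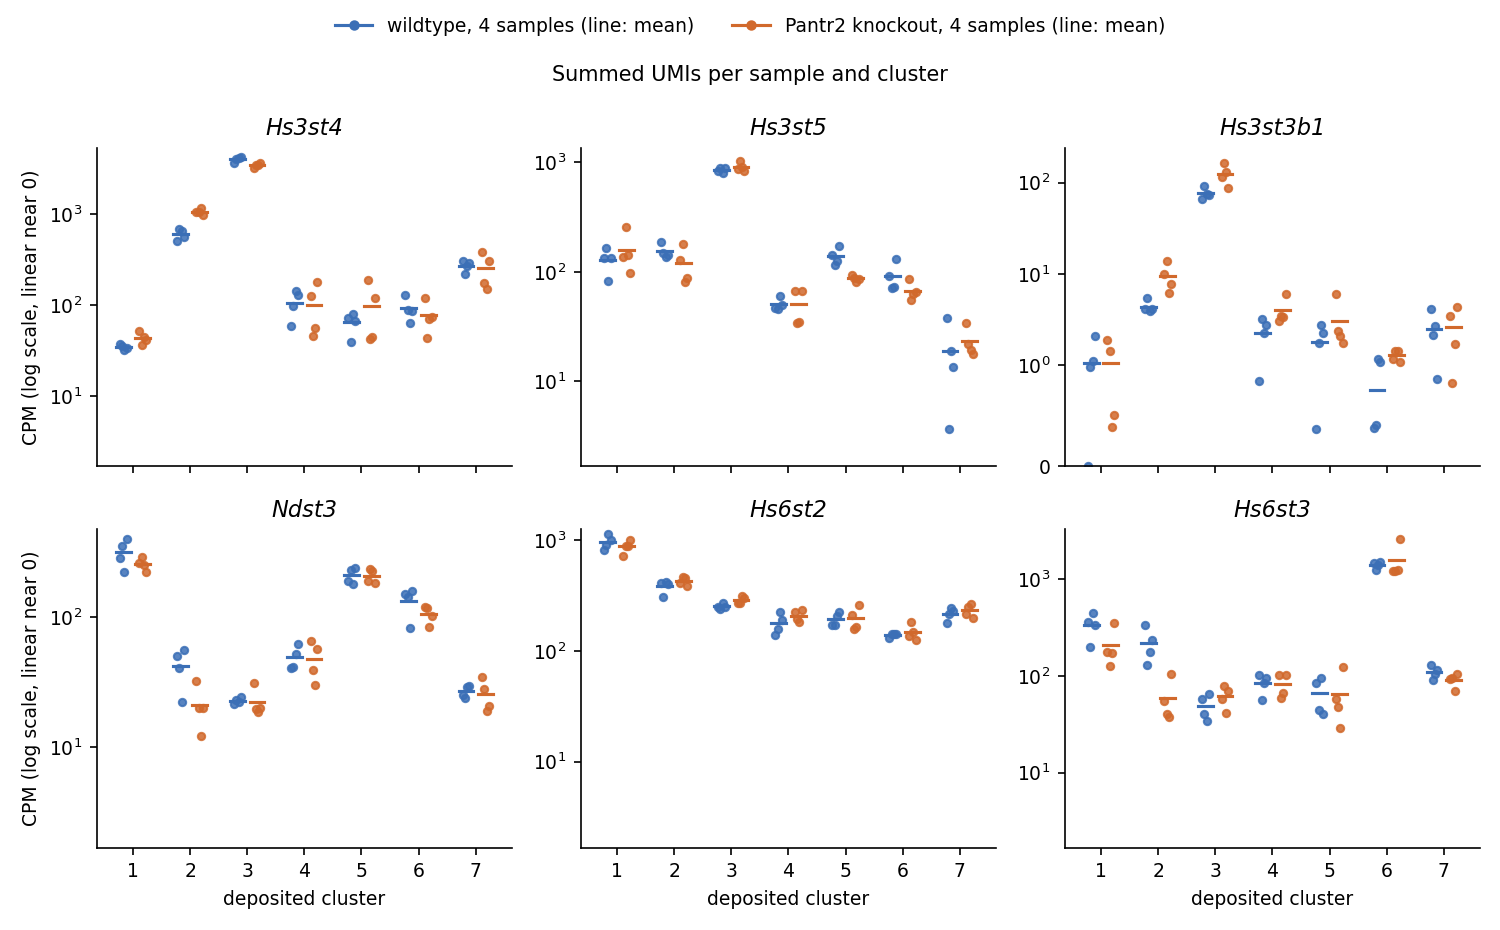
CPM of 6 sulfotransferases in each sample (points) and the mean of 4 samples (lines), by deposited cluster on the x axis and genotype by colour, on a log axis that is linear near 0. Hs3st4 is higher and Hs6st3 lower in knockout samples of cluster 2, and 1 knockout sample stands at 2620 CPM for Hs6st3 in cluster 6 while the others stand at 1211 to 1229.

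Hs3st4 rose in cluster 2. The wildtype samples 1 to 4 read 512, 692, 656 and 562 CPM and the knockout samples 1 to 4 read 1068, 1067, 1162 and 983 CPM. Every knockout sample lay above every wildtype sample. This was a log2 fold change of 0.83 ± 0.09 (SE; edgeR, adjusted p = 0.000138), and the call held in all 13 alternatives, with adjusted p from 8.67e-13 to 0.000993. Thinned to 1400 UMIs, 23% to 32.4% of wildtype nuclei of the cluster and 42.5% to 48% of knockout nuclei had an Hs3st4 UMI. Nuclei with 3 or more thinned UMIs made up 8.51% to 12.6% of the cluster in wildtype and 20% to 23% in knockout samples. In cluster 3, where Hs3st4 is most abundant, the samples read 3660 to 4221 CPM in wildtype and 3235 to 3680 CPM in knockout, overlapping slightly. The log2 fold change of -0.18 ± 0.06 did not pass (edgeR, adjusted p = 0.182), and it passed with the replicate number as a block (adjusted p = 0.0261). In cluster 1 the log2 fold change was 0.35 ± 0.10 (edgeR, adjusted p = 0.0782), also past the threshold with the block (0.0498) and without knockout sample 2 (0.0275). In cluster 1, 4 of 6 upper-layer markers were lower (summed 4464 to 5426 CPM in wildtype and 3623 to 4107 CPM in knockout samples) and 4 of 6 corticothalamic markers higher (1741 to 2145 and 2886 to 4087 CPM), and their part in the values of this cluster was not tested.

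Hs6st3 fell in the same cluster. The wildtype samples of cluster 2 read 336, 131, 178 and 234 CPM and the knockout samples 55.4, 40.7, 37.9 and 104 CPM. The groups did not overlap, the nearest values being 131 and 104 CPM. On the log2 scale the fold change was -1.90 ± 0.32 (SE; edgeR, adjusted p = 0.00173) and the call held in all 13 alternatives (adjusted p 4.35e-05 to 0.00973). A thinned UMI was found in 8.12% to 17.3% of wildtype and 3.16% to 5.16% of knockout nuclei, and in 2.03% to 3.64% of wildtype nuclei of cluster 3, the cluster with the lowest level. At these levels a nucleus without a UMI need not lack the transcript. Nuclei with 3 or more thinned UMIs were 2.97% to 6.71% of the cluster in wildtype and 0.333% to 1.74% in knockout samples. Hs6st3 and Hs3st4 UMIs were found together in 78 wildtype nuclei of the cluster, 1.34% on the mean of the samples, where the product of the separate shares is 3.36%. Per sample, 2.16% to 8.33% of nuclei with a thinned Hs3st4 UMI held an Hs6st3 UMI, and 10.2% to 20% of those without did.

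Hs3st3b1 and Ndst3 also passed in cluster 2, at low levels. Hs3st3b1 read 4.11, 5.37, 3.88 and 4.15 CPM in wildtype and 9.91, 13.7, 6.1 and 7.74 CPM in knockout samples, without overlap. Its log2 fold change was 1.12 ± 0.26 (SE; edgeR, adjusted p = 0.0147), from 77 wildtype UMIs in all, and the adjusted p reached 0.0485 without knockout sample 2. Ndst3 read 50.3, 40.4, 22.4 and 56 CPM in wildtype and 32.2, 20, 12.2 and 20.1 CPM in knockout samples, and wildtype sample 3 lay among the knockout values. The log2 fold change of -1.03 ± 0.27 passed (SE; edgeR, adjusted p = 0.0285), but was lost with DESeq2 (adjusted p = 0.0896) and when any 1 of wildtype samples 1, 2 and 4 or knockout samples 2, 3 and 4 was left out (0.0524 to 0.0968).

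Other genes of the cluster moved with these results. Of 6 upper-layer markers 4 were lower and 1 was higher past the threshold in cluster 2, and their summed level, 576 to 881 CPM in wildtype and 539 to 820 CPM in knockout samples, overlapped. The 6 corticothalamic markers summed to 5932 to 7272 CPM in wildtype and 8591 to 10290 CPM in knockout samples, with 3 of 6 higher. The 6 subcerebral markers, the list that named the cluster, summed to 2334 to 2888 and 2864 to 3326 CPM, with 1 higher and 1 lower. The 10 interneuron markers summed to 73 to 123 and 34.9 to 88.3 CPM, with 3 of 8 tested lower. No marker of these lists was at 0. Of the 10 leading genes of the cluster, 6 were lower in the knockout and 0 higher. The same count was 4 lower and 0 higher in cluster 1, and 3 lower and 0 higher in each of clusters 5 and 7. It was 1 lower and 1 higher in cluster 3, and 0 in either direction in clusters 4 and 6. These leading genes were ranked on wildtype levels alone, which tilts such counts toward lower knockout values, so no conclusion is drawn from them. The part of these markers in the sulfotransferase results was not tested.

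In cluster 3, Hs3st3b1 was the 1 member that passed. It read 66.1, 90.7, 74.4 and 73.4 CPM in wildtype and 116, 164, 130 and 87.7 CPM in knockout samples, and only knockout sample 4 lay within the wildtype range. Its log2 fold change was 0.74 ± 0.16 (SE; edgeR, adjusted p = 0.019). The call was lost when any 1 of wildtype samples 1 and 4 or knockout samples 2 and 3 was left out (adjusted p 0.057 to 0.0673). The 6 corticothalamic markers summed to 11267 to 12284 CPM in wildtype and 11943 to 13094 CPM in knockout samples of this cluster, with 2 of 6 higher past the threshold. Over all nuclei Hs3st3b1 read 12.5 to 20.2 CPM in wildtype and 21.2 to 28.9 CPM in knockout samples without overlap, a log2 fold change of 0.53 ± 0.16 that passed with the replicate number as a block (adjusted p = 0.00581) and with DESeq2 (0.0219) but not without the block (edgeR, adjusted p = 0.086). Hs6st2 in cluster 3 (0.21 ± 0.07, adjusted p = 0.133, edgeR) passed with the block alone (0.0419).

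In the intermediate progenitor-like cluster 5 Hs3st5 fell and Ndst4 rose. Hs3st5 read 144, 115, 125 and 174 CPM in wildtype and 94.6, 87.4, 81.1 and 85.7 CPM in knockout samples, without overlap. Hs3st5 thus had a log2 fold change of -0.66 ± 0.11 (SE; edgeR, adjusted p = 0.00807), and the call held in all 13 alternatives, up to an adjusted p of 0.0332. In cluster 3, its highest cluster, Hs3st5 stood at 806 to 894 CPM in wildtype and 836 to 1026 CPM in knockout samples (0.12 ± 0.07, adjusted p = 0.468). Ndst4 read 3.65, 5.65, 8.33 and 5.21 CPM in wildtype and 13.8, 18.6, 15.2 and 6.42 CPM in knockout samples of cluster 5, where knockout sample 4 lay among the wildtype values. The log2 fold change of 1.40 ± 0.31 passed (SE; edgeR, adjusted p = 0.0359) on 52 wildtype UMIs, and was lost when any 1 of wildtype samples 1, 2 and 4 or knockout samples 2 and 3 was left out (0.0928 to 0.167). In this cluster the upper-layer markers summed to 8194 to 9592 CPM in wildtype and 6160 to 8122 CPM in knockout samples, and 1 of 6 was lower past the threshold; the part of this in the results was not tested.

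Hs6st3 was also lower over all nuclei, at 331, 216, 336 and 300 CPM in wildtype and 183, 146, 144 and 259 CPM in knockout samples, although knockout sample 4 lay within the wildtype range. The log2 fold change of -0.68 ± 0.20 missed the threshold (edgeR, adjusted p = 0.0866), and passed with the replicate number as a block (0.0271), with DESeq2 (0.0157) and without knockout sample 4 (-0.90, 0.00852). In cluster 1 the log2 fold change was -0.68 ± 0.27 (edgeR, adjusted p = 0.22; 0.0272 with the block, and 0.00818 without knockout sample 4). Cluster 6, which held about as large a share of the Hs6st3 UMIs in both genotypes (49.9% to 57.6% in wildtype and 45.9% to 54.6% in knockout samples), made up 4.31% to 8.11% of knockout nuclei against 9.37% to 12.7% of wildtype nuclei. Within cluster 6 the gene stood at 1221, 1211, 1229 and 2620 CPM in the knockout samples and 1246 to 1494 CPM in the wildtype (0.18 ± 0.22, adjusted p = 0.863, edgeR). Knockout sample 4, with 314 nuclei the smallest in this cluster, had an Hs6st3 UMI in 83.1% of thinned nuclei, against 45.6% to 54.6% in the other 7 samples. In summed nuclei, fewer nuclei of a type and less RNA per nucleus cannot be told apart in the value over all nuclei.

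**Figure D3:**
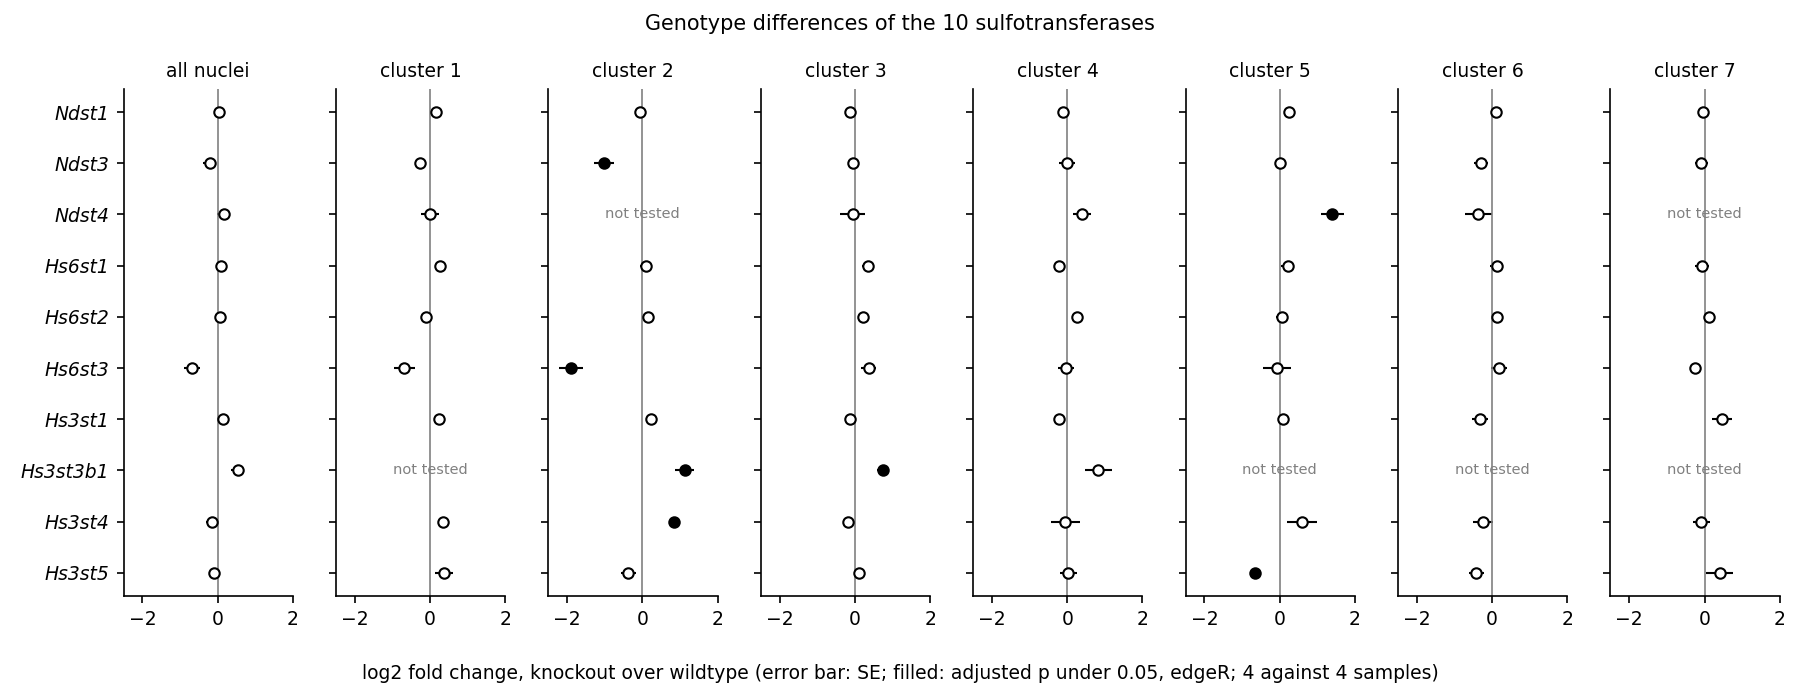
Log2 fold change of knockout over wildtype (x axis) with its standard error for the 10 genes (y axis) in all nuclei and in each cluster, 4 against 4 samples, with filled points past an adjusted p of 0.05 by edgeR. The 7 filled points lie in clusters 2, 3 and 5, with Hs6st3 at -1.90 and Ndst4 at 1.40 the farthest in either direction.

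Whether a cluster's genotype difference departed from that of the other clusters was tested with limma on the difference, within each sample, of log2 CPM between the cluster and the mean of the others. In cluster 2, where 4.8% of all genes passed, 3 of 10 members did. Hs6st3 differed by -1.79 ± 0.14 (SE; limma, adjusted p = 3.53e-06), held in all 11 alternatives. Ndst3 differed by -0.86 ± 0.19 (limma, adjusted p = 0.0115; 0.0597 without wildtype sample 4), and Hs3st4 by 0.84 ± 0.21 (limma, adjusted p = 0.0266). The Hs3st4 call was lost without any 1 of wildtype samples 1 and 4 or knockout samples 2 and 3 (0.0835 to 0.101). The rise of Hs3st3b1 in cluster 2 was not shown to differ from the other clusters (limma, adjusted p = 0.416). In cluster 5, where 0.271% of all genes passed, Hs3st5 did, at -0.63 ± 0.10 (limma, adjusted p = 0.0197), and was lost without any 1 of the 4 wildtype samples or knockout sample 2 (0.0527 to 0.0918). With the replicate number as a block the count over all clusters went from 4 to 9. This added Hs3st5 in cluster 2 (-0.41, limma, adjusted p = 0.00979) and Hs6st2 in cluster 1 (-0.26, 0.0273). It also added Hs6st3 in clusters 1 (-0.40, 0.00597), 3 (0.83, 0.0154) and 6 (0.53, 0.0356). The share of all genes that passed with the block is not given here, so the increase cannot be read as particular to the members.

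The other genes of heparan sulfate synthesis, carriage and removal, with the chondroitin and dermatan sulfotransferases set beside them, numbered 44 in the table and gave 30 calls in 311 tests (9.65%), on 13 genes, against 3.93% of the tests of all genes in the same 8 fits. The fits share nuclei, so 1 gene can be called in several of them. The genes that start the chain gave 6 calls in 55 tests, all higher in the knockout and all from Xylt1 and Pxylp1. Xylt1, the xylosyltransferase that begins the linker, rose in cluster 2 from 68.4 to 86.3 CPM in wildtype to 130 to 153 CPM in knockout samples, a log2 fold change of 0.90 ± 0.09 (SE; edgeR, adjusted p = 5.09e-05). Pxylp1, the phosphatase that releases the linker for elongation, rose there by 0.89 ± 0.14 (edgeR, adjusted p = 0.00109), and in 3 further fits. The chain polymerases gave 2 calls in 32 tests, both lower and both Ext1. The enzymes of removal and cleavage gave 2 calls in 19 tests, both of them Sulf2, an endosulfatase that removes 6-O-sulfate from finished chains. Sulf2 was lower over all nuclei (-0.86 ± 0.15, adjusted p = 0.0132, edgeR) and in cluster 3 (-1.11 ± 0.19, adjusted p = 0.00507, edgeR).

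Among the other chain-modifying enzymes, Hs3st2, a 3-O-sulfotransferase like those above, fell in cluster 2 from 50.7 to 81.3 CPM to 11.8 to 35.1 CPM (-1.65 ± 0.23, adjusted p = 0.000493, edgeR). Hs3st2 was among the leading genes of clusters 2 and 3, and its highest wildtype level was in cluster 3 (85.6 CPM on the mean), where its log2 fold change was -0.33 ± 0.11 (edgeR, adjusted p = 0.133). Ndst2, Glce, Hs2st1 and Hs3st3a1 gave 0 calls. The supply of sulfate donor and sugar precursors, Papss1, Papss2, Slc35b2, Slc35b3 and Ugdh, gave 0 calls in 40 tests, too few to set apart from the 3.93% of all genes.

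Core proteins gave 10 calls higher and 4 lower in 87 tests, and Gpc4 made 6 of the higher ones. Gpc6, a glypican, fell in the upper-layer-like cluster 1 from 416 to 639 CPM to 154 to 222 CPM, a log2 fold change of -1.40 ± 0.13 (SE; edgeR, adjusted p = 1.52e-05). The markers of cluster 1 given above moved with it, and their part was not tested. It was lower in cluster 5 too (-0.91 ± 0.12, adjusted p = 0.000886) and higher in cluster 7 (0.74 ± 0.15, adjusted p = 0.0232). Of the sulfotransferases of the other chain type, Ust rose in cluster 2 (0.56 ± 0.09, adjusted p = 0.00145, edgeR) and Chst11 fell there (-0.47 ± 0.08, adjusted p = 0.00219, edgeR). The median log2 fold change of the list lay between -0.06 in cluster 4 and 0.03 in cluster 6, near that of all genes.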

How the data were processed

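Values are UMI counts per nucleus as deposited by the authors, with their cluster, cell cycle angle and a doublet-like score per nucleus; kallisto, bustools and mm10 are named per the submitters' processing notes, without versions. The deposited score reaches 0.5, and no doublet caller was run. The cluster and angle are the authors' deposited annotation. Raw counts were summed per sample and cluster (at least 50 nuclei each) and divided by their total for CPM. Genotypes were compared with edgeR 4.0.16 (quasi-likelihood, TMM, filterByExpr), differences between clusters with limma 3.58.1 on log2 CPM (prior count 2), and DESeq2 1.42.0 was an alternative. On simulated counts with 200 genes changed by 1 on the log2 scale, edgeR recovered 84.5% of them in cluster 2 (11538 genes), and 8.65% of its calls there were false. All 10 members are named; pathway genes are those with the 6 lowest adjusted p, and Ext1, Sulf2, Gpc4 were added after their values were seen. The members and lists were chosen with earlier results of these data known. A marker counted toward a cluster's name where that cluster was its highest, at 10 CPM or more and 1.5 or more times the others' median. A listed marker is not reported here and stays out of names and sums.

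Samples of the 2 groups share the replicate numbers in the labels. Deviations from the group means over 10924 genes correlated at 0.502, 0.258, 0.264 and 0.176 between samples of the same number, so the numbers may pair the samples. The main edgeR and limma fits used genotype alone and left any pairing out. A block on the replicate number was an alternative. Wildtype sample 3 correlated more with knockout sample 4 (0.415) than with its own number, and wildtype sample 2 about as much with knockout sample 3 (0.262), so the pairing is uncertain; blocked values are given where they change a call; the labels do not say what a number marks. Promoter windows, gene positions and the copies found with blastn 2.17.0 (at least 95% over 100 bases) come from RefSeq and GENCODE M21 on GRCm38. Promoter sequences were available for 8 of the 10 genes. Total UMIs were 20446698 to 34083796 per sample.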

Additional observations from a re-analysis of the deposited data

Results flagged for a closer look

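In 8 of 160 groups of 4 samples 1 sample lay far from the other 3 by Dixon's 95% criterion; chance does so in about 1 in 20 groups. Hs6st3 in cluster 6 read 2620 CPM in knockout sample 4 against 1211 to 1229 CPM in the others. Ndst3 in cluster 3 read 31 CPM in knockout sample 1 against 18.5 to 20 CPM. Hs6st2 read 317 CPM over all nuclei of knockout sample 1 against 407 to 423 CPM, and 132 CPM in cluster 6 of wildtype sample 1 against 142 CPM in each of the others. Hs3st1 read 66.4 CPM in cluster 1 of knockout sample 2 against 59.7 to 60.4 CPM, and 27.2 CPM in cluster 7 of knockout sample 1 against 15.3 to 16.7 CPM. Hs3st3b1 read 5.95 CPM in cluster 4 of knockout sample 4 (18 UMIs) against 3.07 to 3.46 CPM, and 6.05 CPM in cluster 5 of knockout sample 1 (14 UMIs) against at most 2.35 CPM.

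In 4 cases the genotype difference of 1 cluster departed from that of the other clusters by the limma test, on the log2 scale: Hs6st3 in cluster 2 by -1.79, Ndst3 in cluster 2 by -0.86, Hs3st5 in cluster 5 by -0.63 and Hs3st4 in cluster 2 by 0.84.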

How the results depend on the processing

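The 7 member calls became 4 to 8 when 1 sample was left out, and the count was 13 with the replicate number as a block and 7 to 8 over the other settings (DESeq2, RLE scaling, no filter, Xist as a covariate). It fell to 4 without wildtype sample 1 or 4 or knockout sample 3. No share of all genes under the block is given, so the blocked counts cannot be read as particular to the members. Calls in cluster 2 numbered 3 to 4 with 1 sample left out. Pathway calls numbered 17 to 34 with 1 sample left out (17 to 19 without wildtype sample 1, 2 or 4 or knockout sample 2 or 3) and 30 to 35 otherwise. The 4 differences between clusters became 1 to 6 with 1 sample left out (2 without wildtype sample 1 and 1 without wildtype sample 4) and 9 with the paired block. No member value that passed in any fit changed direction; over single members 16 fold changes were weaker and 13 stronger. The cluster of the highest level was kept by all 10 members under 6 of 8 settings and by 9 under the knockout samples (Ndst1) and without nuclei above the median doublet score (Ndst4). Low counts limit Ndst4 and Hs3st3b1 outside cluster 3. The causes were not tested.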
